A study of Mus musculus with 6 samples.

Results

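The genes described here are 36 integrin chains, selectins, selectin ligands and other cell adhesion receptors, with the secreted integrin ligand Spp1, in mouse granulocyte-macrophage progenitors (GMPs), the marrow cells that give rise to granulocytes and monocytes. They were taken by symbol from a given list, and each of the 36 matched exactly 1 of the 37620 gene rows. The RNA-seq libraries came from GMPs sorted from C57BL/6 bone marrow, in 2 groups of 3. The gate took cells without lineage markers or Sca1 that carried c-Kit and CD34, with an Fcγ receptor stain whose level is not stated. The libraries labelled Bap1 knockout (knockout-labelled below) were from MX1+ Cre Bap1 f/f mice, in which polyI:polyC, given to both groups, switches on Cre through the interferon-responsive Mx1 promoter in blood cells and other responding tissues. The control libraries were from Bap1 f/f littermates without Cre, so an effect of Cre itself cannot be told apart from that of Bap1 loss. Mice of both groups were aged 65 days. Their labels give 42 days for polyI:polyC. Read as an age, that is later than the text on the design puts the treatment. Read as the time since treatment, it need not be in conflict with that text. The series asked which transcripts change in GMPs when Bap1, a nuclear deubiquitinase, is lost.

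Integrins are cell surface receptors made of 1 alpha and 1 beta chain, and the pairing decides which ligand is bound. The leukocyte integrins share the beta2 chain and bind immunoglobulin-type receptors such as ICAM1 and ICAM2, while the alpha4 chain with beta1 (VLA-4) binds VCAM1 and fibronectin and helps hold progenitors in the marrow. Selectins bind sugars carried on proteins such as PSGL-1, the first contact of rolling leukocytes with the vessel wall. An RNA level says nothing of how much of a receptor is at the cell surface or whether it is active.

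Gene reads came to 19.5 to 24.1 M (M, 1e6 reads) per knockout-labelled library and 24.1 to 25.9 M per control library, and values are gene counts that the authors had scaled by 1 factor per library (normalized counts). The Bap1 gene itself had values of 2671, 3309 and 2968 in knockout-labelled libraries, against 1343, 999 and 1076 in control libraries. It was thus higher where the label says knockout (limma adjusted p = 6.07e-05), although a count over the whole gene includes exons outside the deleted part and does not check the deletion. All directions below are those of the libraries as labelled. Mpo, the myeloperoxidase of primary granules and a defining GMP gene, was at 513034 to 758797 in knockout-labelled and 488643 to 523637 in control libraries. Of the genes behind the sort markers, by the ratio of means, Cd34 was 2.90-fold lower (limma adjusted p = 5.04e-06) and the Fcγ receptor gene Fcgr3 1.69-fold lower (adjusted p = 0.00198) in knockout-labelled libraries, while Kit was 1.39-fold higher (adjusted p = 0.0214). Among 10 marker lists for GMPs and other cell types, summed dendritic markers ran from 2137 to 5120 against 8984 to 24239 in control, summed B lymphoid markers from 1103 to 1429 against 2250 to 2708, and summed mast cell, basophil and eosinophil markers from 47137 to 61337 against 97867 to 104136. Summed GMP markers were higher, at 1006196 to 1506803 against 839540 to 912554, most of it Mpo and Elane. Mpo itself overlapped between groups and did not pass (limma adjusted p = 0.251). By gene, 5 of 12 GMP markers rose and 2 fell (Cd34 and Fcgr3), where 11.8% of all tested genes rose and 15.0% fell. Summed T and NK markers were higher as well, at 36387 to 56027 against 28321 to 30352, nearly all of it Nkg7, while the other 6 tested markers of that list fell. Of 10 erythroid markers 4 rose, with sums of 6932 to 16597 against 5977 to 9775.

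Among the 36 adhesion genes, 31 had a mean of at least 10 normalized counts over the 6 libraries and were tested. Of these, 4 rose (Vcam1, Alcam, Itgb2 and Cd47) and 9 fell (Itga1, Spp1, Itgb7, Itgb5, Itgam, Icam2, Itgal, Selplg and Cd44) in the knockout-labelled libraries, by limma with a Benjamini-Hochberg adjusted p under 0.05 over all 14391 genes tested. The 13 called genes were 41.9% of those tested, where 26.8% of all tested genes were called. By direction, 12.9% rose, against 11.8% of all tested genes, and 29% fell, against 15% of all tested genes. The median log2 fold change was -0.46, beside 0.01 over all tested genes. Itgax and Itgae passed the filter through their control values alone, with knockout-labelled means of 4.68 and 5.65 normalized counts, so these shares are a description and not a test. Groups did not overlap for 4 tested adhesion genes with higher and 14 with lower values in the knockout-labelled libraries, where 20.4% and 22.5% of all tested genes did so (42.9% in either direction). In sorted cells in bulk, fewer cells of a type and less RNA per cell cannot be told apart, which holds for every value that follows.

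**Figure D1:**
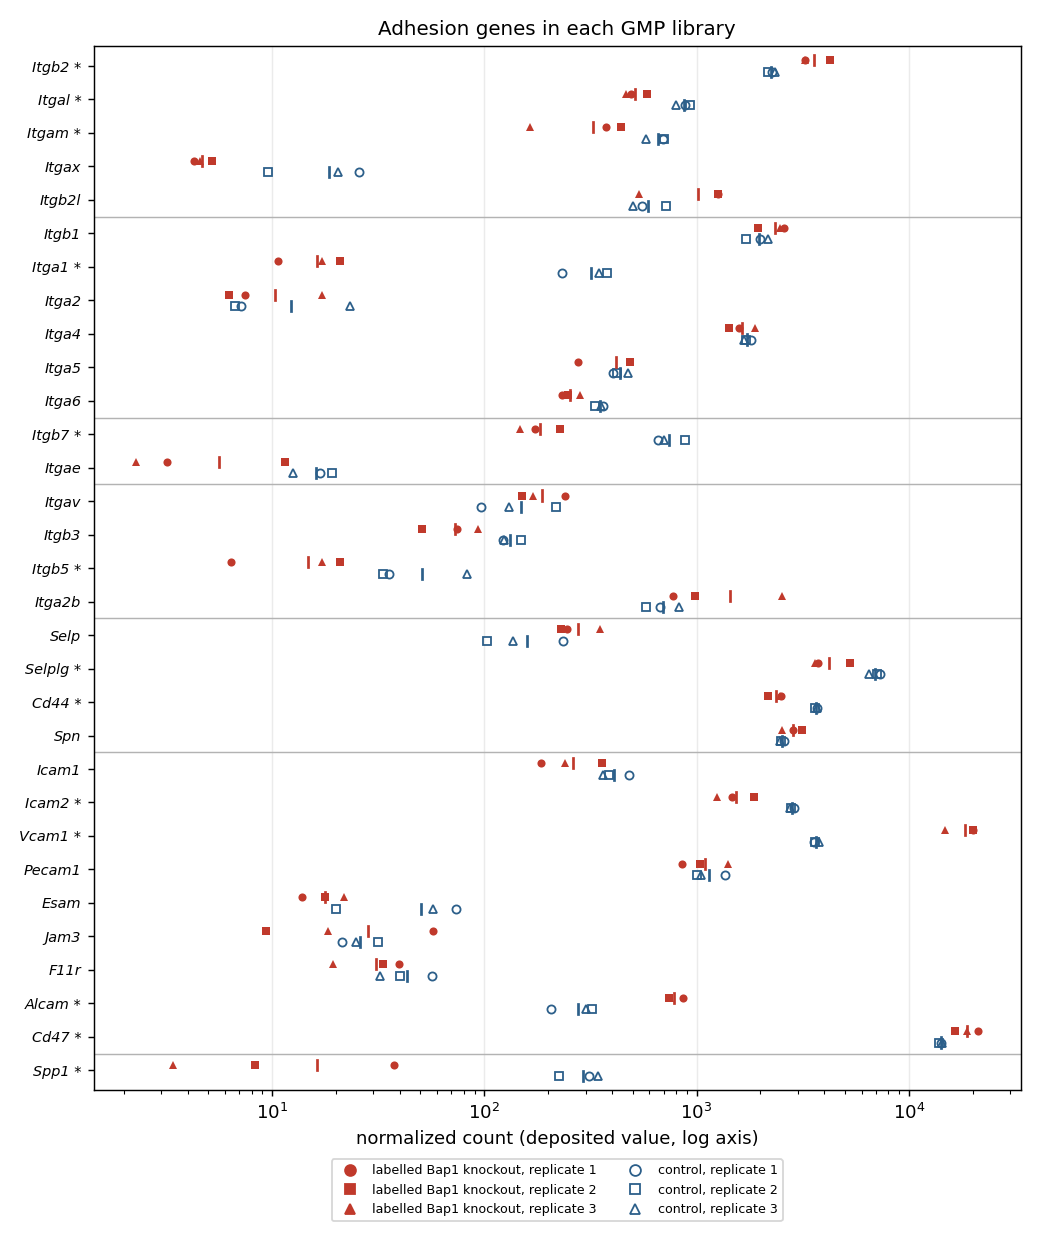
Normalized counts (log axis) of the 31 tested adhesion genes in each library, with filled red symbols for the knockout-labelled and open blue symbols for the control libraries, a vertical dash at each group mean, and an asterisk at the 13 genes past the adjusted p threshold. Vcam1 lies between 14859 and 20075 in knockout-labelled libraries and between 3568 and 3778 in control libraries, while Itga1 and Spp1 are displaced the other way by more than any other member.

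The 5 members below the filter held few reads. Itga7, a chain of a laminin receptor, and Itgb8, a chain of a TGF-beta-activating integrin, had 0 reads in all 6 libraries. Itga3, a laminin receptor chain, had 0 reads in knockout-labelled and 1 read in control libraries. Itga9 had 0 reads in knockout-labelled libraries and 9 in control libraries, all in control replicate 2, and Mcam (CD146), an adhesion molecule of endothelial cells, had 12 and 0 reads. A count of 0 still allows up to 3 reads per library, or 2.67 to 3.43 normalized counts, counting error only.

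Vcam1, the immunoglobulin-type ligand of VLA-4, rose most. It reached 20075, 20067 and 14859 normalized counts in knockout-labelled libraries, against 3568, 3597 and 3778 in the control libraries. Every knockout-labelled library stood far above every control library, and replicate 3 was the lowest of the knockout-labelled libraries. The means were 18334 ± 3009 and 3648 ± 113 (SD, n = 3 each), a ratio of 5.03 (log2 fold change 2.32, SE 0.13, limma adjusted p = 1.55e-06). Per kilobase of transcript, Vcam1 was the most abundant of the 36 genes in knockout-labelled libraries, at 4485 normalized counts per kb, ahead of Cd47 (3601) and Selplg (1821). In control libraries it stood at 892 per kb, behind Selplg (3002), Cd47 (2697) and Icam2 (2190). Its share of the summed normalized counts of the 36 genes was 30.6%, 31.5% and 25.2% in knockout-labelled libraries, against 7.47%, 7.73% and 8.03% in control libraries. Macrophages, endothelium and marrow stroma are known for high VCAM1. Of 21 monocyte and macrophage markers 18 were tested. Of those, 2 rose (Cd68 and Slc40a1) and 11 fell, where of all tested genes 11.8% rose and 15.0% fell. Timd4, of tissue macrophages, was too low to be tested. It had 0 counts in every knockout-labelled library and 19.6, 0 and 3.57 in control libraries. Of 18 endothelial and stromal markers, Cdh5, Lyve1, Dcn, Lum and Bglap had 0 reads in all libraries, and Emcn had 0 in the knockout-labelled ones. Of 5 tested, 1 rose (Egfl7) and 3 fell (Emcn, Eng and Cxcl12), beside the same 11.8% and 15.0%. Pdgfrb was at 97.1, 88.5 and 168 in knockout-labelled libraries and 117, 92.7 and 109 in control libraries. Eng was at 194, 232 and 363 in knockout-labelled libraries and 558, 499 and 457 in control libraries. The summed markers of that list were 1535 to 2311 in knockout-labelled and 1235 to 1394 in control libraries, of which Egfl7, also made by blood progenitors, was 1232, 1358 and 1771 in knockout-labelled and 608, 620 and 534 in control libraries. The part of other cells in the Vcam1 values was not tested.

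Alcam (CD166), which binds itself and CD6, was the other immunoglobulin-type gene with a large rise. Its normalized counts were 861, 743 and 751 in knockout-labelled libraries and 205, 320 and 302 in control libraries, with no overlap (ratio of means 2.85, log2 fold change 1.53, SE 0.20, limma adjusted p = 0.000247). Cd47, the ligand through which cells signal to the phagocyte receptor SIRPα, was at 21285, 16590 and 18849 in knockout-labelled libraries and 14181, 13878 and 14416 in control libraries. The groups did not overlap, and the rise was small (ratio 1.34, log2 fold change 0.41, SE 0.12, limma adjusted p = 0.0242). Cd47 no longer passed when control replicate 1 (adjusted p = 0.085), 2 (0.105) or 3 (0.0901) was left out. Icam2, a ligand of LFA-1, fell: 1469, 1875 and 1246 normalized counts in knockout-labelled libraries stood below 2884, 2778 and 2760 in control libraries (ratio of control to knockout-labelled means 1.83, log2 fold change -0.90, SE 0.15, limma adjusted p = 0.00126). Icam1, the inducible ligand of LFA-1 and Mac-1, averaged 261 ± 88.8 and 410 ± 61.6 (SD, n = 3 each). It lay in the same direction as Icam2 without passing (limma adjusted p = 0.0556), and it passed in 4 of 15 alternative settings. Pecam1 (CD31), which binds itself between leukocytes and endothelium, was at 856, 1039 and 1400 in knockout-labelled libraries and 1355, 1007 and 1055 in control libraries, overlapping throughout (adjusted p = 0.817). Members of cell junctions were low. Esam averaged 17.8 ± 3.92 and 50.3 ± 27.5, Jam3 28.4 ± 25.7 and 25.9 ± 5.17, and F11r 30.7 ± 10.3 and 43.0 ± 12.6 normalized counts in knockout-labelled and control libraries (adjusted p 0.101, 0.818 and 0.444).

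The 250 bases before the start of Alcam (RefSeq, GRCm38.p6, chr16:52453082-52453331, minus strand) are shown because Alcam rose in every knockout-labelled library. They hold 22 CG dinucleotides, where the median is 10 over the promoters of the adhesion genes and 6 over all 32851. Capitals here and below mark matches, on either strand, to any of 5 motifs: the PU box GAGGAA of ETS-family factors, the TATA box TATAAA, the CCAAT box, the AP-1 motif TGANTCA and the GATA motif AGATAA.
Alcam: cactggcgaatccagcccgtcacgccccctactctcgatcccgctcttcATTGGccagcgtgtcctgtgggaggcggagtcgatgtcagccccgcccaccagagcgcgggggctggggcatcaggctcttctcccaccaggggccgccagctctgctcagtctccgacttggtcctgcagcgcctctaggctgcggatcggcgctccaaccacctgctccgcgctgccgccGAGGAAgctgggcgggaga
It held 1 CCAAT match and 1 PU box match, found in 33.8% and 23.3% of all promoters. A match is a run of letters and not evidence of binding. The table held 27 promoters of 24 of the 36 genes, and 11 of the 27 (40.7%) held the PU box.

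Among the leukocyte integrins the shared beta chain and its alpha partners did not move together: Itgb2 rose, and Itgal and Itgam fell. Itgb2 (CD18), the beta2 chain, was at 3250, 4274 and 3252 normalized counts in knockout-labelled libraries and 2262, 2161 and 2341 in control libraries. The groups did not overlap, and it rose 1.59-fold (log2 fold change 0.66, SE 0.13, limma adjusted p = 0.00376). Itgal (CD11a, which makes LFA-1 with beta2) fell: it was at 490, 584 and 466 in knockout-labelled libraries and 884, 936 and 802 in control libraries (log2 fold change -0.77, SE 0.15, adjusted p = 0.00363). Itgam (CD11b, the Mac-1 chain of neutrophils and monocytes) fell too, at 376, 438 and 163 against 697, 706 and 580 in control libraries (log2 fold change -1.13, SE 0.31, adjusted p = 0.0178). Knockout-labelled replicate 3 was lowest, and Itgam no longer passed when control replicate 1 (adjusted p = 0.051) or 2 (0.0716) was left out. Itgax (CD11c, of dendritic cells and macrophages) was close to the detection limit, at 4.27, 5.21 and 4.57 in knockout-labelled libraries and 25.8, 9.56 and 20.5 in control libraries, and did not pass (adjusted p = 0.0876). Itgb2l, a gene close to Itgb2 in sequence, was at 1265, 1261 and 534 in knockout-labelled libraries and 553, 719 and 501 in control libraries. It overlapped through replicate 3 and missed the threshold (adjusted p = 0.0982), which it passed without that library (log2 fold change 1.11, adjusted p = 0.00162). Summed neutrophil maturation markers were likewise lowest in knockout-labelled replicate 3, at 112421, with 291797 and 313909 in the other two and 140848 to 192059 in control libraries, and their part in these values was not tested.

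To compare chains, normalized counts were divided by the length of the longest transcript. The ratio of Itgb2 to the sum of Itgal, Itgam and Itgax was 6.25, 6.96 and 8.74 in knockout-labelled libraries and 2.35, 2.19 and 2.79 in control libraries. The ratio averaged 7.32 ± 1.28 and 2.44 ± 0.311 (SD, n = 3 each), a 3.00-fold difference with no overlap (2-sided exact permutation p = 0.1, the smallest that 3 against 3 libraries allow; 0.14 adjusted over 7 ratios, which were chosen after the values were seen). Within the alpha chains, Itgam made up 45.8%, 45.3% and 27.9% of the sum in knockout-labelled libraries and 45.9%, 45.4% and 43.9% in control libraries (exact permutation p = 0.6). The ratio of Itgb2l to Itgb2 overlapped between the groups, at 0.299 ± 0.12 and 0.279 ± 0.0651 (exact permutation p = 1). Among monocyte genes Csf1r, the M-CSF receptor, was at 431, 724 and 238 in knockout-labelled libraries and 2427, 2263 and 2121 in control libraries. Ly6c2 overlapped between groups, at 87914, 98227 and 46716 against 57137, 66624 and 60556.5 in control libraries (limma adjusted p = 0.418). Of 18 tested genes of the monocyte and macrophage list 2 rose and 11 fell, where of all tested genes 11.8% rose and 15.0% fell. The list summed to 58031 to 110974 in knockout-labelled and 82670 to 92910 in control libraries, most of it Ly6c2. The part of monocyte genes in the chain values was not tested.

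**Figure D2:**
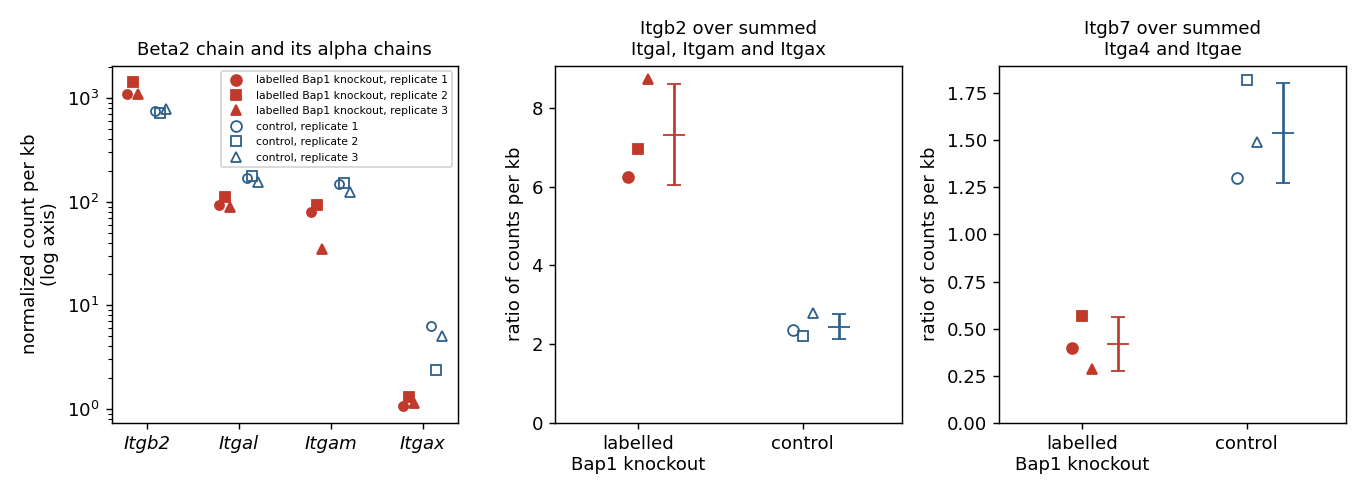
Left, normalized counts per kb of transcript (log axis) of the beta2 chain Itgb2 and its alpha chains Itgal, Itgam and Itgax in each library; middle and right, ratios of beta to summed alpha chains, with each library as a symbol and the mean ± SD beside it. The Itgb2 ratio is 6.25 to 8.74 in knockout-labelled and 2.19 to 2.79 in control libraries, and the Itgb7 ratio is 0.283 to 0.569 and 1.30 to 1.82.

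Itgam and Itgax are neighbouring members of one alpha chain family on chromosome 7, and their promoters (RefSeq, GRCm38.p6, plus strand, chr7:128062390-128062639 and chr7:128129300-128129549) are shown because both genes were lower in every knockout-labelled library while their beta chain was higher.
Itgam: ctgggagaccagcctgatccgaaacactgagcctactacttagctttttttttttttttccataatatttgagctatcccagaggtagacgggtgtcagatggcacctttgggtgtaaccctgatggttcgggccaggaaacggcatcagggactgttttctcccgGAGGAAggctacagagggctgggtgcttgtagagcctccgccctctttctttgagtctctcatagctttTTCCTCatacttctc
Itgax: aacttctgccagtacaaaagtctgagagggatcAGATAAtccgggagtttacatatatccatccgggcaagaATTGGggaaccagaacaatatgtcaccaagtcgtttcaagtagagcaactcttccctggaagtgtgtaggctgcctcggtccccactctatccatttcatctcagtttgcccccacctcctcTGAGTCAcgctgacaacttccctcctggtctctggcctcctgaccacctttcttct
The Itgam sequence held 2 matches to the PU box, beginning 84 and 15 bases before the start, and none of the other motifs. The Itgax sequence held no PU box match, and 1 each of the CCAAT, AP-1 and GATA motifs, which 33.8%, 6.75% and 9.99% of all promoters hold. The promoters of Itgb2 and Itgal were not analysed here.

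Of 6 tested beta1 integrin members 1 was called (16.7%, beside 26.8% of all tested genes). It was Itga1, the alpha1 chain of a collagen receptor, which was at 10.7, 20.8 and 17.1 normalized counts in knockout-labelled libraries, against 232, 379 and 346 in control libraries. It fell 19.7-fold by the ratio of means, with a wide gap between the groups (log2 fold change -4.23, SE 0.36, limma adjusted p = 1.46e-05). The beta1 chain Itgb1 was at 2587, 1957 and 2485 in knockout-labelled libraries and 2001, 1715 and 2179 in control libraries, overlapping (adjusted p = 0.224), and it passed once values were adjusted for GC content and length (0.0217). Itga4, the alpha4 chain of VLA-4 and so the receptor of Vcam1, was at 1584, 1430 and 1890 in knockout-labelled libraries and 1799, 1711 and 1679 in control libraries. It overlapped on both sides, with a log2 fold change of -0.09 (SE 0.13, adjusted p = 0.655), and 8.04% of its exon bases overlap those of Cerkl on the other strand. The ratio of Vcam1 to Itga4 per kb was 30.3, 33.5 and 18.8 in knockout-labelled libraries and 4.74, 5.02 and 5.37 in control libraries (exact permutation p = 0.1). Itga5, the fibronectin receptor chain, averaged 416 ± 120 and 435 ± 36.4, and Itga6, a laminin receptor chain, 254 ± 25.8 and 349 ± 15.4 (SD, n = 3 each). The Itga6 values did not overlap but did not pass (adjusted p = 0.0821). Itga2, a collagen receptor chain of platelets, stood at 10.3 ± 5.96 and 12.3 ± 9.40 (adjusted p = 0.904). The ratio of Itgb1 to the sum of Itga1, Itga2, Itga3, Itga4, Itga5, Itga6, Itga7 and Itga9 per kb was 2.42, 1.62 and 1.75 in knockout-labelled libraries and 1.37, 1.17 and 1.44 in control libraries (exact permutation p = 0.1). That sum left out Itgav and counted Itga4 in full, although the beta7 chain also pairs with alpha4.

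Itgb7, the beta7 chain that makes gut-homing integrins with alpha4 and alphaE, fell. Its normalized counts were 173, 228 and 147 in knockout-labelled libraries and 658, 880 and 700 in control libraries, with no overlap. The ratio of control to knockout-labelled means was 4.08 (log2 fold change -2.04, SE 0.21, limma adjusted p = 5.86e-05). Its partner Itgae (CD103, of mucosal lymphocytes and some dendritic cells) was at 5.65 ± 5.05 and 16.2 ± 3.37 and did not pass (adjusted p = 0.131). Per kb, the ratio of Itgb7 to the sum of Itga4 and Itgae was 0.395, 0.569 and 0.283 in knockout-labelled libraries and 1.30, 1.82 and 1.49 in control libraries (exact permutation p = 0.1). The ratio of Itgb7 to Itgb1, which compete for alpha4, was 0.115 ± 0.0442 and 0.551 ± 0.155 (exact permutation p = 0.1). Beta7 integrins are also known on mast cell and basophil progenitors, lymphocytes and dendritic cells. Of their tested markers, 6 of 10 in the mast cell, basophil and eosinophil list fell while Mcpt8, of basophils, rose 1.55-fold (adjusted p = 0.0168). Among dendritic markers 8 of 10 fell, among B lymphoid markers 8 of 8 and among T and NK markers 6 of 7. Of all tested genes 15.0% fell and 11.8% rose. The part of those cells was not tested.

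Of the alphaV and platelet integrins, 1 of 4 tested members passed (25.0%, near the 26.8% of all tested genes). Itgb5, a vitronectin receptor chain, was at 6.40, 20.8 and 17.1 normalized counts in knockout-labelled libraries and 35.5, 33.4 and 82.9 in control libraries (log2 fold change -1.72, SE 0.57, limma adjusted p = 0.044). The call rested on few reads and was lost in 6 of 14 alternatives, with adjusted p up to 0.194 without control replicate 3. Itgb3, the beta3 chain of platelets and osteoclasts, was at 74.7, 51.0 and 93.6 against 123, 148 and 124 in control libraries, with no overlap and an adjusted p of 0.0524. Its platelet partner Itga2b (CD41) was at 779, 987 and 2526 in knockout-labelled libraries and 673, 576 and 826 in control libraries. Knockout-labelled replicate 3 stood apart, and the log2 fold change of 0.87 (adjusted p = 0.0816) was 0.36 without it (0.195). That library was also the highest for the platelet glycoprotein genes Gp5 (170, 170 and 273 in knockout-labelled libraries, 43.5, 29.6 and 88.2 in control libraries) and Gp1ba (78.9, 86.4 and 220, against 36.4, 16.2 and 69.5). Over the 15 megakaryocyte and platelet markers, 2 rose and 6 fell of 13 tested, where of all tested genes 11.8% rose and 15.0% fell. Summed values were 5330 to 7043 in knockout-labelled and 6182 to 7502.5 in control libraries. Pf4, platelet factor 4, was at 208 ± 14.4 and 1686 ± 541 (SD, n = 3 each). Itgav averaged 187 ± 46.3 and 148 ± 62.8 (adjusted p = 0.401).

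Selp, the P-selectin of platelets and endothelium, was at 244, 230 and 352 normalized counts in knockout-labelled libraries and 236, 103 and 136 in control libraries. The groups overlapped, and the log2 fold change of 0.85 (SE 0.31) missed the threshold (limma adjusted p = 0.0587). It passed in 5 of 15 alternatives, among them the fit without control replicate 1 (0.016). Its ligand on leukocytes did fall: Selplg (PSGL-1) was at 3728, 5289 and 3623 in knockout-labelled libraries and 7312, 7054 and 6473 in control libraries. The ratio of control to knockout-labelled means was 1.65 (log2 fold change -0.74, SE 0.15, adjusted p = 0.00362). Cd44, the hyaluronan receptor that can also carry selectin-binding sugars, fell in a tight range, with 2488, 2169 and 2475 in knockout-labelled libraries below 3690, 3616 and 3679 in control libraries (ratio 1.54, log2 fold change -0.63, SE 0.11, adjusted p = 0.00196). Spn (CD43), a large leukocyte sialoprotein, overlapped between groups, at 2855, 3141 and 2539 in knockout-labelled libraries and 2573, 2509 and 2461 in control libraries (adjusted p = 0.309).

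**Figure D3:**
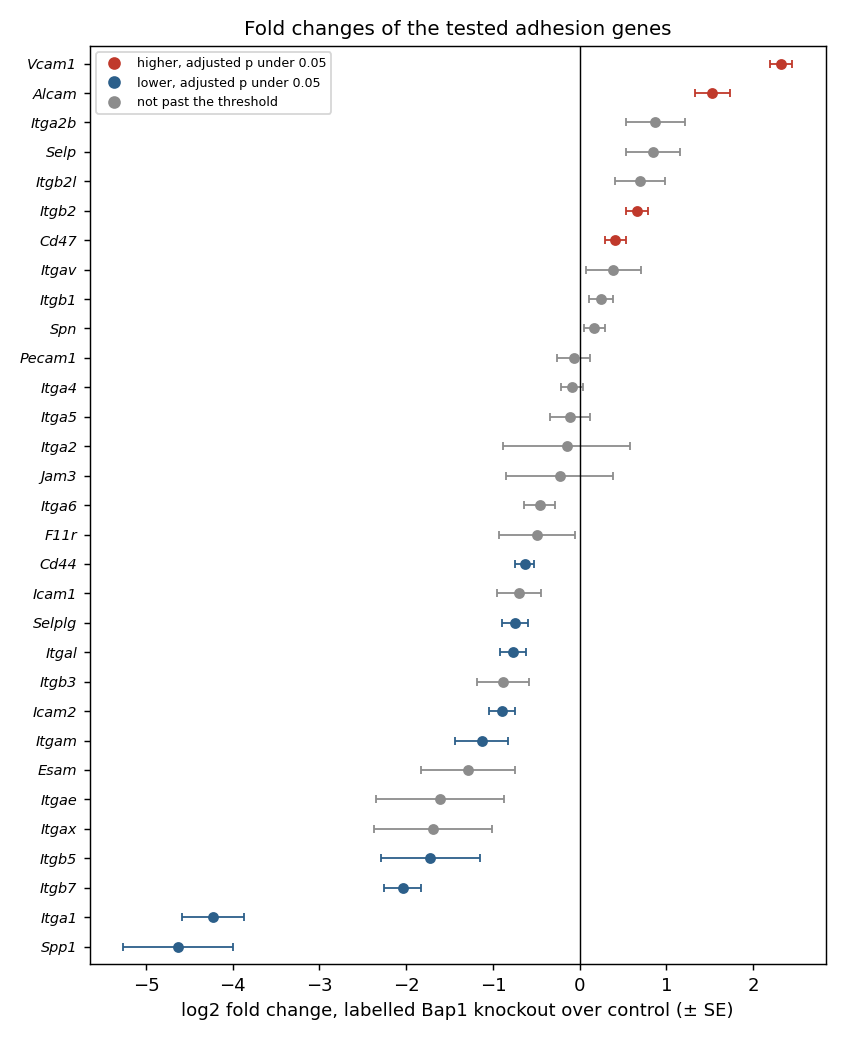
Log2 fold changes (± SE) of the 31 tested adhesion genes in knockout-labelled over control libraries, ordered by size, with red and blue for the 4 genes that rose and the 9 that fell and grey for the rest. The values run from -4.63 for Spp1 to 2.32 for Vcam1.

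Spp1 (osteopontin), a secreted ligand of alphaV, alpha4 and alpha9 integrins and of CD44, fell. It was at 37.3, 8.33 and 3.43 normalized counts in knockout-labelled libraries, against 310, 225 and 343 in control libraries. The knockout-labelled libraries differed among themselves more than the control libraries in relative terms but stayed far below them (log2 fold change -4.63, SE 0.63, limma adjusted p = 0.000375; -4.14 in edgeR and -4.16 in DESeq2). Its log2 fold change was -5.49 without knockout-labelled replicate 1 and -3.93 without replicate 3. Osteopontin is made by macrophages and bone-forming cells. Of 18 tested monocyte and macrophage markers 2 rose and 11 fell, where of all tested genes 11.8% rose and 15.0% fell. Ibsp, a bone matrix gene, had 0 counts in knockout-labelled libraries and 5.33, 21.0 and 6.24 in control libraries, and Bglap had 0 reads in all. The collagen gene Col1a1 went the other way, with 6 reads in knockout-labelled and 0 in control libraries. Col1a2 had 2 reads in knockout-labelled libraries and 12 in control libraries, all in control replicate 2. The part of such cells in the Spp1 values was not tested. The upstream of 2 annotated Spp1 starts (RefSeq, GRCm38.p6, chr5:104434861-104435110, plus strand) is shown because Spp1 was far lower in every knockout-labelled library.
Spp1: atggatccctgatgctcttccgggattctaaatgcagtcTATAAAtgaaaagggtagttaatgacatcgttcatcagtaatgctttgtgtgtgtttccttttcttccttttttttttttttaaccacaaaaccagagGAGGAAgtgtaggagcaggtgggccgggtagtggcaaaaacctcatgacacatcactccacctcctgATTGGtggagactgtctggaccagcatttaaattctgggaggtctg
It held 1 match each of the TATA box, the CCAAT box and the PU box, beginning 211, 46 and 113 bases before that start. It was the 1 promoter of the 27 with a TATA box match, which 12.4% of all promoters hold.

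Genes that act with these receptors were read from 5 lists, of which 94 of 133 genes were tested, and 22 rose and 19 fell (43.6%, beside 26.8% of all tested genes). Of the called genes, Ptk2, Itgb4 and Podxl passed the filter through their knockout-labelled values alone and Skap1 through its control values alone, so these counts too are a description and not a test. Of 31 tested integrin adaptors and signalling genes 9 rose and 6 fell (48.4%, beside the same 26.8%), with a median log2 fold change of 0.10. Lpxn (leupaxin), a paxillin relative of blood cells, was at 28.8 ± 15.2 normalized counts in knockout-labelled and 412 ± 56.6 in control libraries (log2 fold change -3.96, SE 0.41, limma adjusted p = 6.39e-05). Fyb, the ADAP adaptor of integrin activation, fell by 1.63 on the log2 scale (adjusted p = 0.000282) and Cytip, which binds cytohesin, by 0.93 (adjusted p = 0.00213). Ptk2, focal adhesion kinase, was at 67.2, 38.5 and 62.8 in knockout-labelled libraries and 3.55, 8.60 and 0.891 in control libraries, and it was tested through its knockout-labelled values alone. Parvg, the parvin of blood cells, rose 1.52-fold (adjusted p = 0.00316) and the actin crosslinker gene Actn1 2.42-fold (adjusted p = 0.00318). Tln1, the talin that switches integrins on, was at 2459 ± 308 and 2322 ± 143 (adjusted p = 0.693). Fermt3, the kindlin of blood cells, rose 1.42-fold (adjusted p = 0.0416), a call lost in 9 of 15 alternatives.

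Of 19 tested other integrin, selectin and immunoglobulin-type adhesion genes 4 rose and 4 fell (42.1%, beside 26.8% of all tested genes). Ncam1 (CD56), which binds itself, was at 6976 ± 971 normalized counts in knockout-labelled libraries and 2098 ± 224 in control libraries (log2 fold change 1.73, SE 0.13, limma adjusted p = 9e-06). Itgb4, a laminin receptor chain of epithelium, was at 63.6 ± 27.1 and 9.94 ± 2.82 and was likewise tested through its knockout-labelled values alone, and Sirpa, the receptor of CD47, rose 1.64-fold (adjusted p = 0.00183). Beside Cd34, Cd96, a T and NK cell receptor, was at 10.2 ± 7.16 and 122 ± 19.9 (adjusted p = 0.000554), and Cd99l2 fell by 1.19 on the log2 scale (adjusted p = 0.00545). Of 17 tested genes that build selectin ligands 2 rose and 5 fell (41.2%, beside the same 26.8%). C1galt1c1 (Cosmc), the chaperone needed for core O-glycans, was at 1599 ± 614 and 5182 ± 132 (adjusted p = 0.000369), B4galt4 at 613 ± 23.5 and 1919 ± 207 (adjusted p = 1.23e-05), and Gcnt1, which branches O-glycans, at 165 ± 10.7 and 435 ± 78.4 (adjusted p = 0.000648). The sialyltransferase genes St3gal3 and St3gal4 rose 2.47-fold and 1.51-fold (adjusted p 0.00919 and 0.00752).

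**Figure D4:**
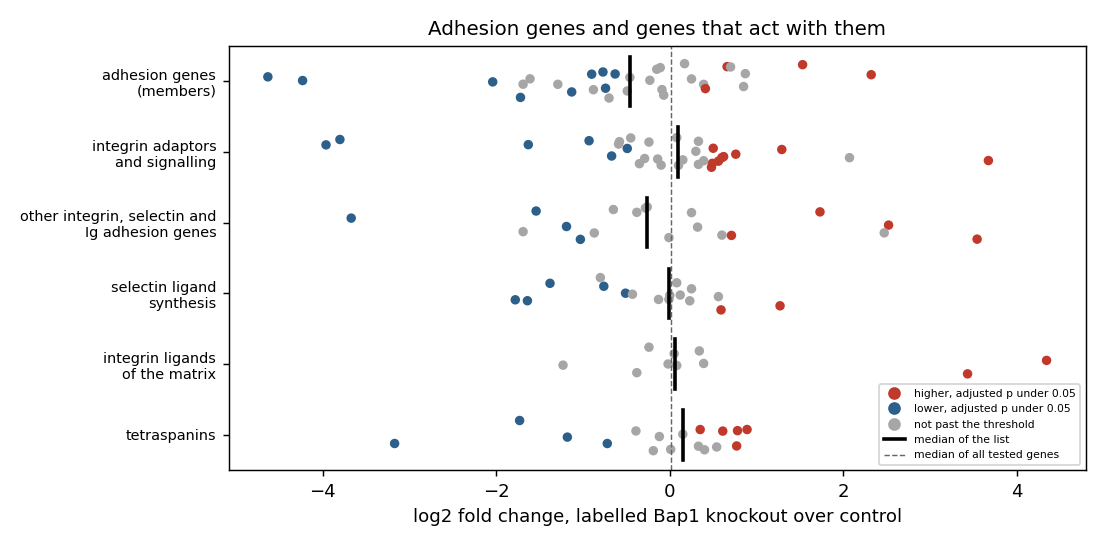
Log2 fold changes of the 31 tested adhesion genes and of the tested genes of 5 lists of genes that act with them, with red and blue for genes past the adjusted p threshold, a black bar at each list's median and a dashed line at the median of all tested genes. The median of the adhesion genes is -0.46, and those of the lists lie between -0.26 and 0.15.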

How the data were processed

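The authors deposited 1 table of gene counts divided by a size factor per library, a signal and no longer whole reads. Builds mm9 and NCBIM37 stand in the submitters' processing notes, as do the tools HTSeq, DESeq2, STAR, Picard and BWA 0.7.5a, without roles. The strand setting of the counting is not known here. Per the labels' protocols, Ion Total RNA-Seq libraries were built by PCR from SMARTer-amplified RNA, and no molecular identifiers are named. In every library 100% of values above 0 were whole multiples of 1 step (tolerance 0.01 read), so whole reads could be recovered. Gene reads were 22.9 to 25.2% of all reads listed. The 5 rows that name no gene were left out, and 26.76 to 28.79% of reads aligned to several places and were not assigned, so genes with close copies are undercounted.

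Genes averaging 10 or more were put on the log2(value + 1) scale and tested 2-sided between groups by limma 3.58.1 under R 4.3.3, allowing the variance to follow the mean, with Benjamini-Hochberg adjustment over all genes. Fold changes of low genes on that scale depend on the added 1 and on single low libraries, and can lie below or above those of count models. Folds named as ratios are of group means. Alternatives, in the closing section, included edgeR 4.0.16, which called 1687 genes higher and 2077 lower on the recovered reads, and DESeq2 1.42.0. Symbols came from GENCODE M21 (32897 of 37620 IDs matched), on another build than the files, and lengths are of its longest transcript. RefSeq promoters are on GRCm38.p6. Correlations of deviations from group means between same-numbered libraries were -0.104, 0.042 and -0.058, and samples were not treated as pairs. With 3 libraries per group such values cannot show whether same-numbered libraries shared a litter or a sort. Nothing in the labels ties a library to its own animal, so p-values measure the spread between libraries. One item is not reported here. The genes, lists and tests were chosen with earlier results of these data known. By rule, all members were accounted for, those that passed or averaged at least 1000 were given by library, and each related list gave the 3 genes per direction with the lowest adjusted p among those that passed, with cell-defining genes from marker lists. Tln1, Fermt3 and Fn1, and per-library values of other members, were added after values were seen.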

Additional observations from a re-analysis of the deposited data

How the results depend on the processing

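Of the 13 called adhesion genes, 10 kept their direction and their side of the threshold in each of 15 alternatives in which they had a value: Vcam1, Alcam, Itgb2, Itga1, Itgb7, Itgal, Icam2, Selplg, Cd44 and Spp1. The exceptions were Itgam, Itgb5 and Cd47. Leaving out 1 library, the adhesion genes counted 3 to 5 higher and 7 to 10 lower, the related lists 18 to 24 higher and 13 to 20 lower, and all genes 1032 to 1791 higher and 1372 to 2324 lower. The low counts over all genes came without control replicate 2 (1032 and 1417) or 3 (1053 and 1372), in place of 1695 and 2163. With the replicate number as a block, 7 adhesion genes were higher, and 8 with the block and adjustment for GC content and length, in place of 4. Whether that number pairs samples is not known here. The added genes were Itga2b, Selp and Itgb2l, and with the correction Itgb1. The block gave 1550 higher and 2014 lower of all genes. Some genes without a call changed sign near 0 in some settings: Itga2 (leaving out 1 library -0.55 to 0.39; 0.03 with GC and length correction, with and without the block, 0.11 without knockout replicate 2), Itga4 (0.10 with either correction; -0.20 to 0.00 leaving out 1 library), Pecam1 (-0.26 to 0.10 leaving out 1 library, 0.06 without control replicate 1) and Jam3 (0.13 in edgeR and DESeq2, -0.91 to 0.34 leaving out 1 library). Itga5 did so as well (-0.24 to 0.16). The cause was not tested. edgeR called 5 adhesion genes higher and 9 lower, DESeq2 5 and 9. Low reads limit Itgax, Itgae, Itga2 and the 5 untested members.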

Other observations

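Further lists of partners were read in the same fit. Of 17 tested tetraspanins, membrane proteins that gather integrins into clusters, 5 rose and 4 fell (52.9%, beside 26.8% of all tested genes). Tspan32, a tetraspanin of blood cells, was at 12417 ± 789 normalized counts in knockout-labelled libraries and 7296 ± 483 in control libraries (SD, n = 3 each; log2 fold change 0.77, SE 0.11, limma adjusted p = 0.000489). Cd82 rose 1.87-fold (adjusted p = 0.00171) and the granule tetraspanin gene Cd63 1.53-fold (adjusted p = 0.00217). Tspan13 was at 233 ± 79.6 and 2014 ± 194 (log2 fold change -3.17, SE 0.24, adjusted p = 7.39e-06), Tspan3 at 846 ± 88.4 and 2795 ± 214 (adjusted p = 8.81e-06), and Tspan31 fell by 0.72 on the log2 scale (adjusted p = 0.00351).

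Of 27 matrix genes that serve as integrin ligands, 10 were tested, and the 2 called genes both rose (20.0%, below the 26.8% of all tested genes). Col5a1, a fibrillar collagen chain, rose 10.9-fold by the ratio of means (log2 fold change 3.43, SE 0.36, limma adjusted p = 6.75e-05). Fbln1, fibulin 1, was at 242 ± 58.3 and 19.5 ± 16.9 (log2 fold change 4.34, SE 0.85, adjusted p = 0.00342), which was 3.63 in edgeR and 3.64 in DESeq2, and became 3.02 without control replicate 3 and 5.12 without control replicate 1. Fn1 (fibronectin) was at 97.5 ± 54.8 and 91.6 ± 34.0 (adjusted p = 0.98).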
